A study of Mus musculus with 6 samples.

Results

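The genes described here encode the nuclear subunits of the oxidative phosphorylation machinery of mitochondria, together with the assembly factors that share their names. They were chosen by gene symbol alone: every probe set with a single symbol that starts with Nduf, Uqcr, Atp5, Sdh followed by a to d, or Cox followed by 4 to 8. This rule found 100 probe sets of 73 genes among 12422 probe sets on Affymetrix arrays of mouse peritoneal exudate cells, a macrophage-rich wash of the abdominal cavity. A further 10 probe sets carried several symbols of which at least 1 fitted the rule, and these were not taken. The members comprised 38 probe sets of 29 complex I genes, 4 of complex II, 7 of complex III, 23 probe sets of 15 complex IV genes, 22 probe sets of 14 ATP synthase genes, and assembly factors of complex I (4 probe sets of 2 genes) and complex II (2 of 2 genes).

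Complexes I and II pass electrons from NADH and succinate to ubiquinone, complex III hands them to cytochrome c, and complex IV, cytochrome c oxidase, gives them to oxygen. Complexes I, III and IV pump protons across the inner membrane, and the ATP synthase uses the returning protons to make ATP. Complex II is also the succinate dehydrogenase of the citric acid cycle. Macrophages given lipopolysaccharide (LPS) with interferon-γ are known for a shift from mitochondrial respiration towards glycolysis, during which succinate gathers and nitric oxide acts on the respiratory chain.

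Each of 6 arrays held the RNA of 1 sample from C57BL/6 cells. The genotypes were wild type (WT), a knockout of NF-IL6 (KO), the transcription factor also called C/EBPβ, and a knock-in that the labels name KI(LAP) (KI), LAP being the activating form of that factor. Each genotype was measured untreated and after LPS with IFN-gamma. The labels of the stimulated KO and KI arrays name 12 h, that of the stimulated WT array names no time, and none says how the KI allele was built or whether animals were pooled. No group had a replicate, so every difference between 2 arrays below stands without a test.

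The signals were those of MAS5, Affymetrix's summary of a probe set, on a linear scale. Signals under a floor of 98.0, the 40th percentile of all values, were raised to it before log2 was taken, and a fold that starts or ends there is given as "at least". Levels of different probe sets cannot be set against each other. Probe sets above the floor made up from 55.7% on the stimulated KI array to 65.8% on the untreated WT array. Cebpb, which encodes NF-IL6, was under the floor on both KO arrays. Of 7 macrophage marker genes on the array, 6 were above the floor on all 6 arrays. Their list had a summed signal of 56020 to 59020 in untreated and 34930 to 47130 in stimulated cells. On their brighter probe sets Lyz2, Cd68, Csf1r and Mrc1 were lower after stimulation in each genotype. Adgre1 was higher in each, from 2260 to 5562 in WT cells, while Cd14 and Itgam were higher in WT and lower in KO and KI cells. For T cells, only Cd4 among 6 marker genes was above the floor, while Cd3g, Cd3e, Cd3d, Cd8a and Thy1 were under it on every array. All 5 B cell marker genes were above it on at least 1 array, with a summed signal of 4486 and 4040 on the untreated WT and KO arrays and 1057 to 2009 on the other 4. Markers of neutrophils (4 of 6 genes), mast cells (3 of 6), mesothelial cells and fibroblasts (6 of 8) and striated muscle (3 of 8) were above the floor on at least 1 array. Their summed signals in untreated and stimulated cells were 853.8 to 1460 and 583.5 to 1893 for neutrophils, and 1876 to 2855 and 1570 to 2097 for mast cells. They were 1210 to 1868 and 1111 to 2700 for mesothelial cells and fibroblasts, and 703.0 to 1094 and 496.4 to 924.0 for muscle. In such mixed samples, fewer cells of a type and less RNA per cell cannot be told apart.

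Of the 100 member probe sets, 70 were above the floor on all 6 arrays, 20 on some and 10 on none, and the 90 of the first kinds, from 72 genes, entered the fits. All 7 complex III and all 4 complex II probe sets were above the floor on every array, against 11 of 23 for complex IV and 17 of 22 for the ATP synthase. Cox7a1, the heart and muscle form of a complex IV subunit, was the member gene under the floor throughout, with signals between 11.4 and 77.0. The other 9 probe sets under the floor belonged to genes with another probe set above it.

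After stimulation, 5 of 90 members fell and 0 rose in the limma fit of all 6 arrays with genotype as a block (Benjamini-Hochberg adjusted p under 0.05 over all 9344 probe sets tested). The shares over all probe sets tested were 6.01% lower and 5.03% higher. The count that fell was thus near the background, 5.56% against 6.01%. Among probe sets with a mean signal of at least 500, 9.26% of members fell, against 11.9% of all probe sets as bright. The members that fell were Ndufa6, Ndufb8 and Ndufb11 of complex I, Uqcr11 of complex III and Atp5e of the ATP synthase. Because these 5 members were called, the stretches of DNA just before their start sites are printed. They are the 250 bases before the start site from RefSeq, build GRCm38.p6, 5′ to 3′ on the strand of the gene, with capitals for any match to the motifs searched.
Ndufa6 (chr15:82354292-82354541, minus strand): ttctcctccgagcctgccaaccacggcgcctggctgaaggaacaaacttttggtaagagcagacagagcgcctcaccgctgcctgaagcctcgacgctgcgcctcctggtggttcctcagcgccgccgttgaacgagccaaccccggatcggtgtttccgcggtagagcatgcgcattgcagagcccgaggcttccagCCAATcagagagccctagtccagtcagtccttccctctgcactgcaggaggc
Ndufb8 (chr19:44555443-44555692, minus strand): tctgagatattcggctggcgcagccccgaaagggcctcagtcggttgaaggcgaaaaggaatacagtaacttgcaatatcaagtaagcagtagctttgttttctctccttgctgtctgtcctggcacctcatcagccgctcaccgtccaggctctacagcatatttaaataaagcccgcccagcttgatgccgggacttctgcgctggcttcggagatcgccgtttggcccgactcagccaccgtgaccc
Ndufb11 (chrX:20617620-20617869, minus strand): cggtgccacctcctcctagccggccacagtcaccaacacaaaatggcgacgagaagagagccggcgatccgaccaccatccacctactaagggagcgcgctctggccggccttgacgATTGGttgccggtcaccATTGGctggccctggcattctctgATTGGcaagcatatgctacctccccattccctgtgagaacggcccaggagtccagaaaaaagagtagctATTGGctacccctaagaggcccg
Uqcr11 (chr10:80406822-80407071, minus strand): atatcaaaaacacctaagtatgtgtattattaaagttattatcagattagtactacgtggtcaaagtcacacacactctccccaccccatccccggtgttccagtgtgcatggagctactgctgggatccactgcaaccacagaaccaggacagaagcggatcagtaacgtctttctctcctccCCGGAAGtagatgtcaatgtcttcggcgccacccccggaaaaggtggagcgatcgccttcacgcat
Atp5e (chr2:174464102-174464351, minus strand): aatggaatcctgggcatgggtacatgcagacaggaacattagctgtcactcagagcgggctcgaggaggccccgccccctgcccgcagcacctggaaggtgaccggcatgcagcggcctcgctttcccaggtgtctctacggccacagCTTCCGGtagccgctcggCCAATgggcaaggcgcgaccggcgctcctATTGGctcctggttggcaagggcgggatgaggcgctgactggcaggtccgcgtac

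The motifs were searched on both strands of this window. They were the palindromic site of NRF1, a regulator of respiratory genes, CCGGAAG (the core of ETS factors such as GABPA), AAGATGGCG (YY1), TTGCNNAA (C/EBP factors) and CCAAT (NF-Y). None of these matches overlapped another in the 5 windows. Uqcr11 and Atp5e held CCGGAAG, at 66 to 60 and at 102 to 96 bases before the start. Ndufa6 held CCAAT once, Atp5e at 2 places and Ndufb11 at 4, while the Ndufb8 window held none of the letters searched. Entries were found for 60 of 73 member genes. CCGGAAG was present for 13 of them (21.7%), against 7.83% of 27025 genes with an entry, and the NRF1 site for 9 (15.0%), against 4.23%. CCAAT was present for 25 (41.7% against 37.5%), TTGCNNAA for 6 (10% against 10.8%) and AAGATGGCG for 1 (1.67% against 0.71%). The median GC content of the window was 57.6% over 65 member promoters and 52.4% over all 32851. A match is a run of letters and not a measured binding site.

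Ndufb11, an accessory subunit in the membrane arm of complex I, read 2565 untreated and 1157 stimulated with the WT genotype, 2064 and 1146 with KO, and 1920 and 1142 with KI. All 3 stimulated arrays lay below all 3 untreated ones, and the stimulated signals were closer together than the untreated ones. The fall was 2.22-fold in WT, 1.80-fold in KO and 1.68-fold in KI cells (fitted log2 change -0.92, SE 0.14, limma adjusted p = 0.0222).

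Ndufa6, a complex I accessory subunit of the LYR protein family, read 1122 untreated and 418 stimulated with WT, 860 and 442 with KO, and 684 and 415 with KI. It was the member with the largest mean change, and its stimulated arrays again lay together below the untreated ones (fitted log2 change -1.03, SE 0.21, limma adjusted p = 0.0416). Ndufb8, another membrane-arm subunit, whose protein is widely used as a mark of assembled complex I, read 3205 and 1970 with WT, 2781 and 1864 with KO, and 3056 and 2155 with KI (fitted log2 change -0.59, SE 0.12, limma adjusted p = 0.0396). The groups did not overlap for either gene.

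Uqcr11, the smallest subunit of complex III, read 1819 and 990 with WT, 1682 and 766 with KO, and 1440 and 944 with KI (fitted log2 change -0.87, SE 0.16, limma adjusted p = 0.0331). Atp5e, the ε subunit in the rotating stalk of the ATP synthase, read 1733 and 1067, 1324 and 884, and 1780 and 1132 in the same order (fitted log2 change -0.65, SE 0.13, limma adjusted p = 0.0399). Its probe set carries the suffix _i, one of the letter suffixes that mark Affymetrix probe sets outside the standard design. The untreated KO signal of Atp5e was the closest to the stimulated signals, and the states still did not overlap.

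**Figure D1:**
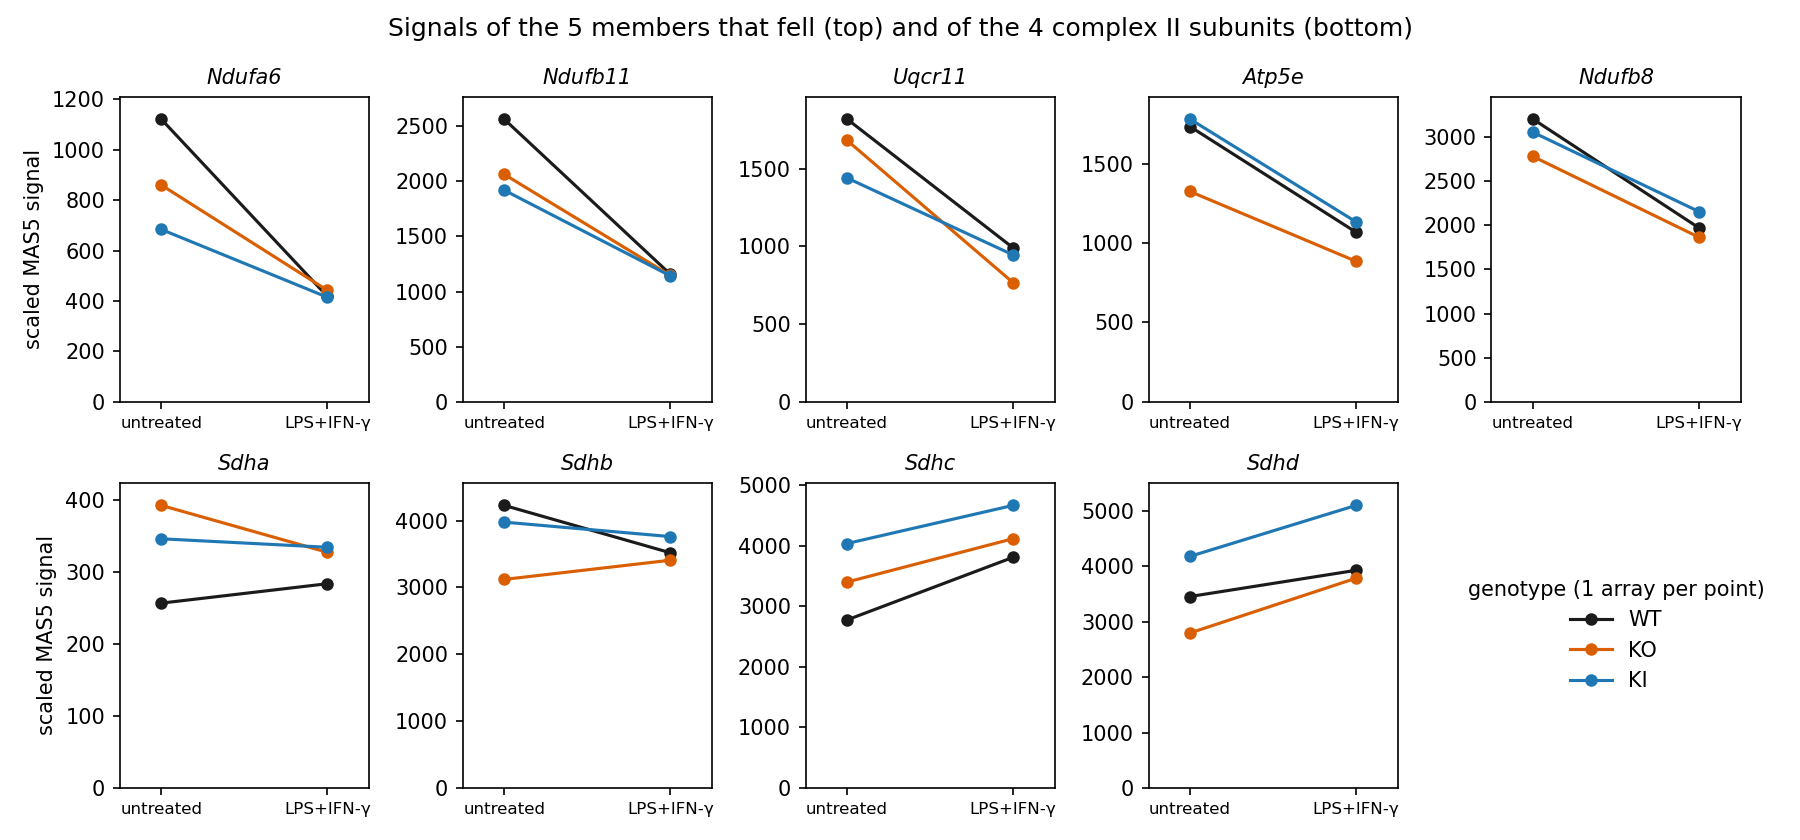
Scaled MAS5 signal (vertical axis, linear, starting at 0) on the untreated and the stimulated array of each genotype, 1 array per point, with a line joining the arrays of a genotype. The top panels show Ndufa6, Ndufb11, Uqcr11, Atp5e and Ndufb8, in which every stimulated signal lies below every untreated one; the bottom panels show the 4 subunits of complex II, of which Sdhc and Sdhd are higher on the stimulated array of each genotype.

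The error of this fit is how far the 3 genotypes responded unequally, since no culture was repeated, and it has 2 residual degrees of freedom. With any one of the 6 arrays left out, fewer residual degrees of freedom remained, and nearly none of the 9344 probe sets tested passed, whether member or not. Such fits therefore cannot show how firm a member's call is. In them the median member change ran from -0.21 to -0.13 on the log2 scale. With each array centred on its median only Ndufb11 passed.

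A further 13 members had an unadjusted p under 0.05 on the lower side, which made 18 in all (20% against 17.3% of all probe sets tested), and 2 on the higher side (2.22% against 9.89%). Nearest to the threshold were Ndufb10, a membrane-arm subunit of complex I, and Cox7a2l, grouped here with complex IV. Their log2 changes were -0.62 (limma adjusted p = 0.0519) and -0.83 (limma adjusted p = 0.0566). Cox7a2l read 3260 and 1433 with WT, 2976 and 1574 with KO, and 2050 and 1580 with KI. The 3 stimulated signals were alike, and the untreated KI signal was the lowest of the untreated ones. In all, 22 of 90 members had every stimulated signal below every untreated one (24.4% against 17.2% of all probe sets tested), and 1 had the reverse (1.11% against 9.77%). With each array centred on its median these shares were 8.79% against 11.2% below and 5.49% against 12.5% above, so the members' excess on the lower side depended on the scaling, while their share on the higher side was the lower one under both. Among the 54 members with a mean signal of at least 500, 21 lay wholly below (38.9% against 25.8% of probe sets as bright).

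As a list, the members moved little. Their median log2 change was -0.19, with the middle 50% from -0.37 to -0.04, beside -0.12, from -0.42 to 0.15, over all probe sets tested. The largest fall was 1.03 on the log2 scale and the highest value was 0.36, for 1 of 5 probe sets of Atp5d. That probe set was above the floor on 1 array. Median centring moved the median of all probe sets to -0.00 and that of the members to -0.02, and quantile normalization to -0.04 and -0.15. Set against the median of all probe sets, the members were therefore at -0.07 in the main fit, -0.02 after centring and -0.11 after quantile normalization. The median residual standard deviation was 0.155 for the members and 0.235 over all probe sets tested.

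Complex I gave 3 of the 5 calls among 35 probe sets tested, with a median log2 change of -0.22. Of its core subunits, Ndufs1, the large iron-sulphur subunit, read 1045 and 694 with WT, 956 and 706 with KO, and 1064 and 677 with KI (log2 change -0.56, limma adjusted p = 0.0801). Its untreated and stimulated arrays did not overlap. Ndufv1, which binds NADH and FMN, was at 3612 and 3268, 2850 and 2928, and 3555 and 2701, with overlapping states (log2 change -0.17, limma adjusted p = 0.478). Ndufs3 was slightly higher on the stimulated array of each genotype, at 1566 and 1816, 1856 and 2172, and 2338 and 2468, but the states overlapped (log2 change 0.17, limma adjusted p = 0.415). Ndufv2, the partner of Ndufv1, read 2500 and 1662, 2207 and 1849, and 2157 and 1801 on its brighter probe set, with every stimulated signal below every untreated one (log2 change -0.37, limma adjusted p = 0.159), and had -0.43 on the other. Of the 4 core genes measured, Ndufs3 was thus the one with a value above 0, and none passed the test.

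Among accessory subunits, Ndufa13, also known as GRIM-19, had a log2 change of -0.60 (limma adjusted p = 0.078) and Ndufb5 one of -0.46 (limma adjusted p = 0.104). Ndufab1, the mitochondrial acyl carrier protein, was the one member with all stimulated above all untreated signals: 1148 and 1196 with WT, 908 and 1211 with KO, and 1015 and 1530 with KI (log2 change 0.36, limma adjusted p = 0.239). Ndufa9 had 0.30 (limma adjusted p = 0.24). In 18 of 35 complex I probe sets the signal was lower after stimulation in all 3 genotypes and in 3 it was higher in all 3. Over all members these counts were 34 (37.8% against 27.4% of all probe sets tested) and 7 (7.78% against 15.4%); after median centring the first was 15 (16.5% against 19.6%).

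Complex II, with 4 genes, had 0 calls, 2 at an unadjusted p under 0.05, and a median log2 change of 0.12. It was the complex whose median lay above 0 under all 6 scalings and floors tried, from 0.12 to 0.30, while that of complex I ran from -0.27 to -0.07. Sdhc, a membrane anchor of the complex, read 2774 and 3808 with WT, 3399 and 4115 with KO, and 4035 and 4665 with KI. Every genotype was higher after stimulation, yet the states overlapped because the untreated KI signal was above the stimulated WT one (log2 change 0.31, SE 0.12, limma adjusted p = 0.166). Sdhd, the other anchor, was at 3454 and 3927, 2796 and 3785, and 4179 and 5099 (log2 change 0.30, SE 0.12, limma adjusted p = 0.178). Sdha, the flavoprotein that oxidises succinate, was at 257 and 284, 393 and 328, and 347 and 335, and Sdhb, the iron-sulphur subunit, at 4227 and 3518, 3119 and 3406, and 3976 and 3760. Neither moved the same way in all genotypes, and the limma adjusted p was 0.897 and 0.746. The assembly factors Sdhaf1 and Sdhaf2 were lower after stimulation in WT and KO cells and higher in KI cells, with Sdhaf1 at 933 and 592, 837 and 401, and 553 and 603. The limma adjusted p was 0.287 for Sdhaf1 and 0.528 for Sdhaf2.

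Complex III had 1 call in 7 genes and a median log2 change of -0.12. Uqcrc1 and Uqcrc2, the large core proteins, had changes of -0.20 and 0.27 (limma adjusted p = 0.326 and 0.357). Uqcrc2 was at 1178 and 1193 with WT, 1098 and 1298 with KO, and 800 and 1174 with KI, higher after stimulation in each but with overlapping states. Uqcrq, which sits beside cytochrome b, had a change of -0.32 (limma adjusted p = 0.164), and its 3 stimulated signals lay below the untreated ones. Uqcrh, the hinge protein for cytochrome c1, was at 4150 and 2991, 3167 and 3808, and 3108 and 2817, with KO running opposite to WT and KI (limma adjusted p = 0.699).

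Complex IV had 0 calls in 18 probe sets, 1 at an unadjusted p under 0.05, and a median log2 change of -0.07. Its 7 probe sets with a mean signal of at least 500 ran from -0.83, for Cox7a2l above, to 0.19, with a median of -0.04. On its brightest probe set, which carries the suffix _f, Cox6c had every stimulated signal below every untreated one. It was at 6189 and 4617 with WT, 6825 and 5353 with KO, and 6339 and 5866 with KI (log2 change -0.30, limma adjusted p = 0.2). The other Cox6c probe set tested, above the floor on 1 array, had a change of 0.035. Cox6a1, the widely expressed form of subunit VIa, was at 7955 and 7469 with WT, 6746 and 6570 with KO, and 8214 and 8316 with KI, and Cox5b at 4134 and 3557, 3638 and 3750, and 3867 and 3976. Cox7a2, the widely expressed form of subunit VIIa, was at 4885 and 4236, 3439 and 3759, and 4227 and 4524. Cox6a1, Cox5b and Cox7a2 had overlapping states and a limma adjusted p from 0.84 to 0.977. Of the heart and muscle partners, Cox6a2 ran from 48.5 to 143 over the 6 arrays and Cox7a1 stayed under the floor. Cox8b read 323 to 505 on a probe set with the suffix _r, above the floor on all 6 arrays. Its other probe set read 9.9 to 54.5, under the floor. Cox8a, the widely expressed partner of Cox8b, ran from 26.4 to 116 and was above the floor on 1 array. Cox8c, the testis form, read 848 to 1161 on 1 probe set and was under the floor on all 6 arrays on the other, so its change rests on 1 probe set. Cox4i1, the main form of subunit IV, read 274 to 480 and 109 to 293 on its probe sets, with log2 changes of -0.05 and -0.03. The hypoxia form Cox4i2 was not analysed here.

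The ATP synthase had 1 call in 22 probe sets and a median log2 change of -0.23. Its catalytic head was represented by Atp5a1, the α subunit, at 6275 and 4831 with WT, 7367 and 5912 with KO, and 6223 and 6168 with KI (log2 change -0.24, limma adjusted p = 0.307). All stimulated signals of Atp5a1 lay below the untreated ones, the KI pair by the least. The γ subunit gene Atp5c1, in the rotating stalk, had changes of -0.34 and -0.38 on its probe sets (limma adjusted p = 0.154 and 0.152). Subunit c of the proton-driven ring is made by several genes with the same mature protein. Atp5g2 was at 1072 and 598, 1038 and 726, and 930 and 657 on its brighter probe set (log2 change -0.62, limma adjusted p = 0.0762), while Atp5g1 was at 215 and 240, 258 and 163, and 166 and 152 (log2 change -0.21, limma adjusted p = 0.642). Atp5g3 was not analysed here. The stator subunits Atp5o, Atp5j and Atp5pb had changes of 0.10, -0.02 and 0.04 (limma adjusted p from 0.749 to 0.93).

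**Figure D2:**
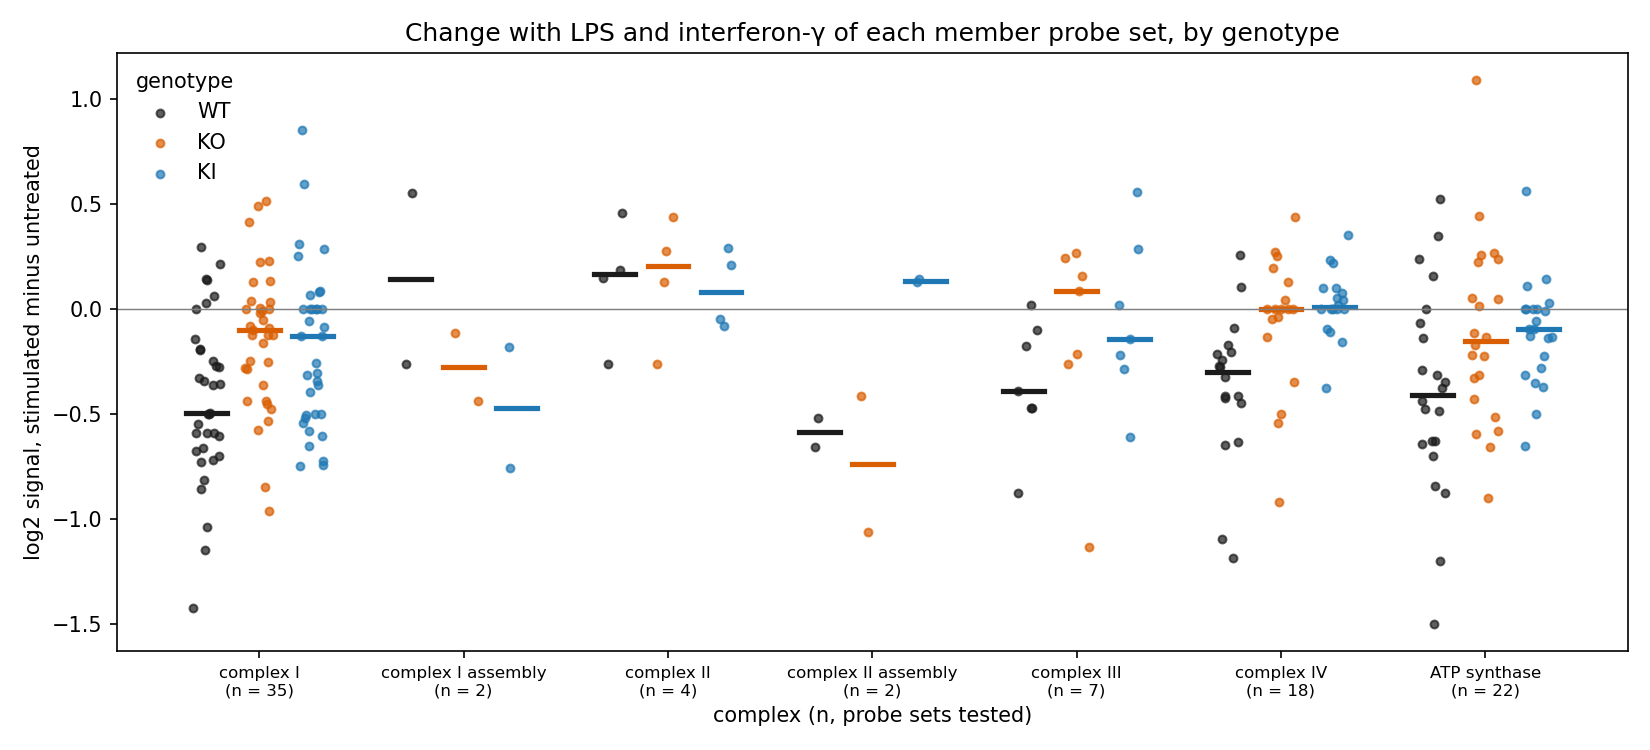
Log2 signal of the stimulated minus the untreated array (vertical axis) for each of the 90 member probe sets tested, in WT, KO and KI cells, grouped by complex, with a short bar at each median. In complex I the WT median is -0.50 against -0.10 in KO and -0.13 in KI cells, and complex II is the subunit group with all 3 medians above 0.

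For 20 genes there was more than 1 probe set, 47 in all, and 14 genes had more than 1 tested. The spread of their fitted changes had a median of 0.18 on the log2 scale and reached 0.98 for Atp5d, the δ subunit, whose 5 probe sets ran from -0.62 to 0.36. The Atp5d value of 0.36 came from a probe set above the floor on 1 array. In 6 of these 14 genes the probe sets had opposite signs, Atp5g1 and Atp5g2 among them. On 1 side of each such conflict stood a single probe set that was above the floor on only 1 to 3 arrays. For Atp5g2 the dimmer probe set gave 0.16 against -0.62. These genes are uncertain where a single probe set is quoted. Of the 100 members, 37 carry a letter suffix that marks probe sets outside the standard design, some of them with shared probes. Without such probe sets 4 of the 5 calls stood among 60 members, Atp5e being left out.

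The second question, given by the series title, is whether induction differed among the genotypes. The WT cells showed the lowest change of the 3 genotypes for 57 of 90 members (63.3% against 39.4% of all probe sets tested). The share among members lay between 59.6% and 74.6% under the 6 scalings and floors tried, against 37.3% to 40.8% over all probe sets. The median log2 change was -0.36 in WT, -0.09 in KO and -0.05 in KI members, beside -0.12, -0.05 and 0.00 over all probe sets tested. After median centring the members' medians were -0.18, 0.06 and 0.03, so the small negative medians of KO and KI changed sign while that of WT did not. These are single arrays without a test of the difference.

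Among the 54 members with a mean signal of at least 500, where the floor plays no part in most values, WT had the lowest change in 40 (74.1% against 35.5% of probe sets as bright). Their medians were -0.43 in WT, -0.10 in KO and -0.13 in KI cells, beside -0.06, -0.12 and -0.11 over all probe sets with such a mean signal. This bound was chosen after the values were seen.

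**Figure D3:**
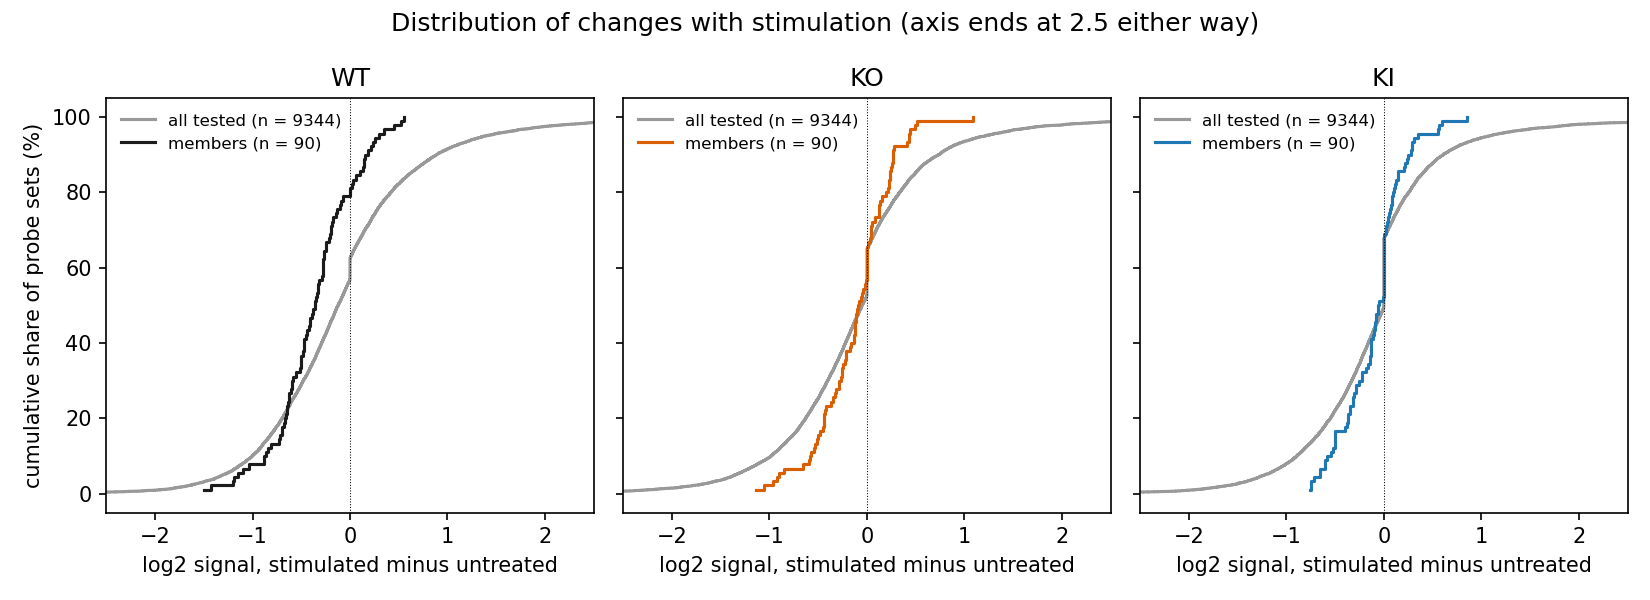
Cumulative share of probe sets in percent (vertical axis) against the log2 signal of the stimulated minus the untreated array (horizontal axis, ending at 2.5 either way), in WT, KO and KI cells, for the 90 members tested and all 9344 probe sets tested. The members' curve is steeper than that of all probe sets in each genotype, and its middle lies at -0.36 in WT, -0.09 in KO and -0.05 in KI cells; the step at 0 is made of values under the floor on both arrays.

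The genotypes were then compared within each state. The untreated WT signal was the highest of the 3 untreated arrays for 62 of 90 members (68.9% against 44.8% of all probe sets tested), or 45.1% against 30.8% after median centring. The stimulated WT signal was the highest of the 3 stimulated arrays for 27 (30.0% against 37.4%). In untreated cells the median member was -0.28 from WT in KO and -0.28 in KI cells, beside -0.04 and -0.11 over all probe sets tested. In stimulated cells both medians were 0.00, beside 0.00 and -0.00. Both comparisons use the same WT arrays and are not independent of each other. Among members with a mean signal of at least 500, the untreated medians were -0.27 in KO and -0.14 in KI cells. Over all probe sets as bright they were 0.01 and 0.00. Between KI and KO cells the median difference over the 90 members was 0.00 in untreated and 0.00 in stimulated cells, and -0.01 for the induction. After median centring the untreated KO median stayed lower at -0.15, the untreated KI median was -0.00, and the stimulated medians were 0.09 for KO and 0.30 for KI, beside 0.00 and 0.11 over all probe sets.

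Other features of the untreated WT array ran beside this. Its percentage of probe sets over the floor was the largest, 65.8% against 61.2% and 57.4% for untreated KO and KI cells. The 18S ribosomal RNA control at the 3′ end read 847 on it, 872 on the untreated KO array and 167 to 302 on the other 4. The 3′ to 5′ ratio of the Gapdh control was 1.04 on it and 0.843 to 0.953 on the others, and that of β-actin 1.18 against 1.01 to 1.13. The summed B cell markers were 4486 on it against 4040 and 1057 on the untreated KO and KI arrays. It also had the highest untreated sum for neutrophils (1460 against 853.8 and 1148), mast cells (2855 against 2427 and 1876), striated muscle (1094 against 712 and 703) and T cells (573.9 against 368 and 369.1). In the T cell sum only Cd4 was above the floor, at 375.7 on it against 228.8 and 273.5 on the untreated KO and KI arrays. The KI array was the highest for mesothelial cells and fibroblasts (1868 against 1613 in WT) and macrophages (59020 against 56700). The part of these in the members' values was not tested.

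**Figure D4:**
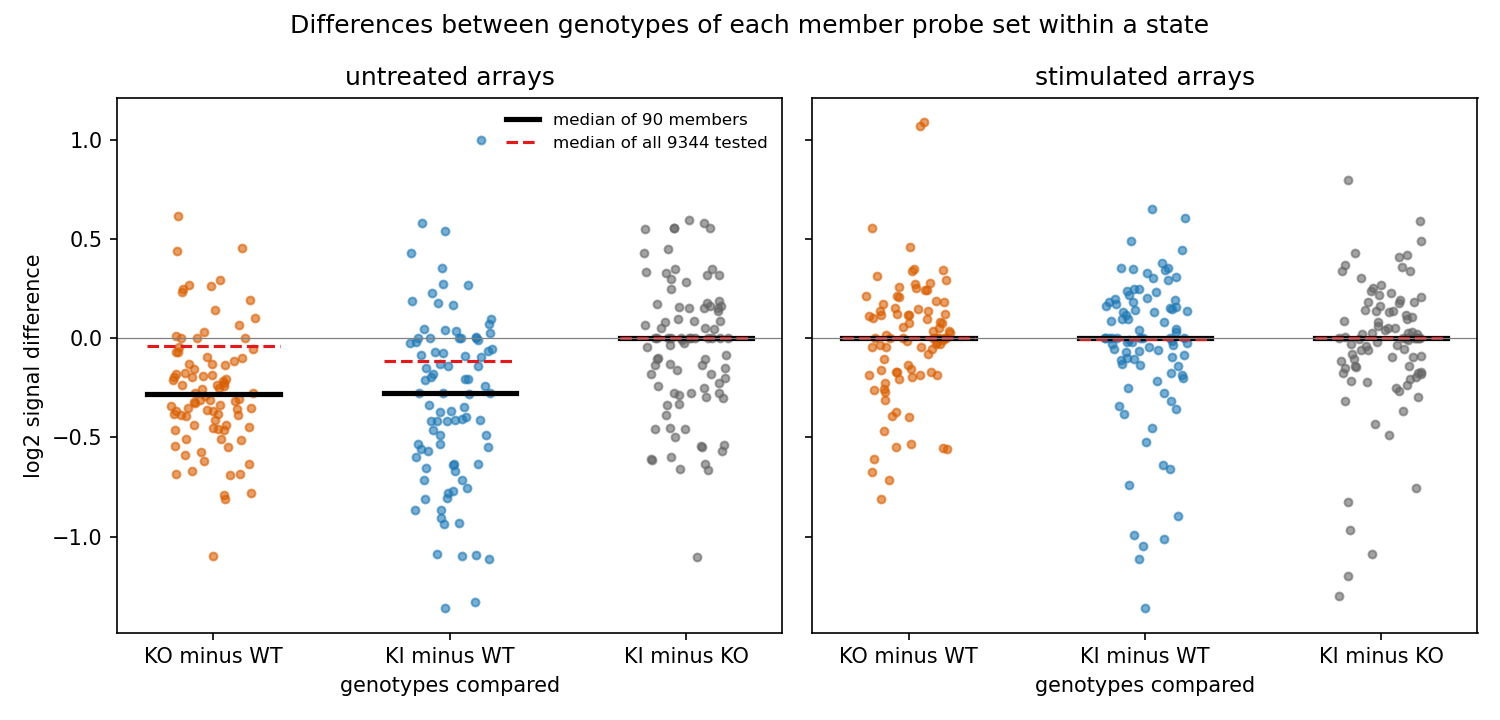
Log2 signal difference between genotypes (vertical axis) of each of the 90 members tested, for KO minus WT, KI minus WT and KI minus KO, on untreated arrays (left) and stimulated arrays (right), with the median of the members as a solid bar and that of all 9344 probe sets tested as a dashed bar. The members' medians against WT are -0.28 and -0.28 on untreated arrays and 0.00 on stimulated arrays, and both comparisons share the WT arrays.

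In the fit of genotypes over both states, 0 of 90 members were called for KO against WT and 0 for KI against WT. The background was 0% and 0.0107% of 9344 probe sets, the smallest limma adjusted p of a member was 0.432 and 0.224, and without the intensity trend both counts were again 0. At an unadjusted p under 0.05 there were 3 members for KO (3.33% against 10.1%) and 10 for KI (11.1% against 17.1%). With the stimulated WT array left out, 3 members passed for KO, probe sets of Cox5a, Cox6b2 and Ndufa1, and for KI these and 1 of Cox8a. All KO and KI values of these 4 probe sets were under the floor and were raised to it. This left no residual spread in that fit, so these calls are given no weight. The share over all probe sets was not counted there. KI against KO gave 0 calls (0% of all probe sets tested) and 5 members at an unadjusted p under 0.05 (5.56% against 7.52%).

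Single members with a log2 change of at least 1 were few. In WT cells 7 were lower (7.78% against 10.1%), which were Ndufa6, Ndufb11, Ndufc1, Cox5a, Cox7a2l, Atp5k and 1 probe set of Atp5d, and 0 were higher (background 8.54%). In KO cells Uqcr11 and Sdhaf1 were lower (2.22% against 9.69%) and another Atp5d probe set higher (1.11% against 6.54%). In KI cells there were 0 either way, with a background of 8.01% lower and 5.58% higher. Ndufc1, a small complex I subunit, read 2162 and 1053 with WT, 1347 and 1108 with KO, and 1187 and 1084 with KI, so its 3 stimulated signals were alike and the untreated WT one stood highest.

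Changes also differed between genotypes for few members. Taking a log2 gap of at least 1, the KO change exceeded that of WT for 4 members (4.44% against 5.36%) and fell short of it for 0 (0% against 7.18%). Between KI and KO cells 3 were above (3.33% against 5.07%), which were probe sets of Atp5l, Ndufa1 and Sdhaf1, and 1 of Atp5d was below (1.11% against 4.09%). Atp5k, the e subunit of the ATP synthase membrane part, was at 473 and 167 with WT, 294 and 351 with KO, and 247 and 198 with KI. It was 2.83-fold lower after stimulation in WT, where its untreated signal was the highest of the 6 arrays and its stimulated one the lowest, and the log2 change in KO was 1.75 higher. The other 3 rest on signals at or near the floor. Cox5a read 210 and 88.8 with WT, at least 2.14-fold lower, and under the floor in both KO and both KI arrays on that probe set. Ndufa12, a complex I subunit, read 168 and 111 with WT and 46.5 and 138 with KO, and 50.1 and 54.5, under the floor, with KI. The fourth, a probe set of Atp5d, read 208 in stimulated KO cells and under the floor on the other 5 arrays, and none of the other 4 probe sets of that gene reached a change of 1 in KO cells.

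For KI against WT, 5 members had an induction higher by at least 1 (5.56% against 6.77%) and 1 lower (1.11% against 8.87%). The 5 were Ndufa2, Atp5k, Cox5a and 1 probe set each of Atp5d and Atp5l. Ndufa2, an accessory subunit of complex I, was the one with a mean signal of at least 500, at 2317 and 1318 with WT, 1859 and 1663 with KO, and 1216 and 1507 with KI. Its signal was lower after stimulation in WT and KO and higher in KI cells, and the log2 changes of KI and WT were 1.12 apart. A probe set of Atp5l, the g subunit of the ATP synthase, read 297 and 161 with WT, 218 and 117 with KO, and 137 and 203 with KI, a difference of 1.44 between KI and WT. On the brighter probe set of the same gene the signals were 9623 and 6160 with WT, 7368 and 5478 with KO, and 6638 and 6025 with KI, lower after stimulation in all 3. Ndufaf4, an assembly factor of complex I, read 72.2, under the floor, and 144 with WT, 133 and 84.6 with KO, and 195 and 115 with KI, a difference of -1.31 between KI and WT.

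Other mitochondrial genes were taken from lists fixed by name. These lists held 17 calls with all 6 arrays. Fits with a single array left out cannot weigh them, since nearly none of the 9344 probe sets tested passed there. The shares over all probe sets tested were 6.01% lower and 5.03% higher. With arrays centred on the median the count that fell was 1 for the citric acid cycle and 0 for electron entry, ribosomal proteins and regulators of expression. The list of mobile electron carriers and electron entry, 12 probe sets of 9 genes, had 2 that rose and 1 that fell (median log2 change -0.07). Gpd2, which feeds electrons from glycerol 3-phosphate into the chain, rose, with readings of 129 and 1472 for WT, 314 and 1042 for KO, and 361 and 1000.0 for KI (log2 change 2.24, limma adjusted p = 0.0399). Cycs, cytochrome c, rose by 1.18 and Etfb, of the electron transfer flavoprotein, fell by 1.24 (limma adjusted p = 0.0407 and 0.0451). Of 4 assembly factor genes measured, Cox17, the copper chaperone for complex IV, rose, with 2780 and 5795, 2491 and 6724, and 2875 and 7000.0 (log2 change 1.26, limma adjusted p = 0.00777).

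In the citric acid cycle, 3 of 19 probe sets fell and 0 rose (median -0.14), beside 6.01% lower and 5.03% higher over all probe sets tested. Idh2, the NADP-dependent isocitrate dehydrogenase, fell by 2.24, with a stimulated KO signal of 35.0, under the floor, Idh3g by 0.83 and Fh1, fumarase, by 0.73 on the log2 scale (limma adjusted p = 0.0134, 0.0323 and 0.0437). Fatty acid oxidation had 4 of 12 lower and 0 higher, with a median of -0.62. Acaa2, the thiolase, fell, with 3489 and 613 for WT, 3620 and 719 for KO, and 3723 and 697 for KI (log2 change -2.42, limma adjusted p = 0.00128), and Hadh, Acadm and Echs1 by 1.39, 1.12 and 1.09 (limma adjusted p = 0.0341, 0.0304 and 0.0183). The median of fatty acid oxidation lay further below 0 than the -0.19 of the oxidative phosphorylation members, while those of the citric acid cycle and electron entry lay nearer to 0; these differences were not tested.

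Of 71 probe sets of mitochondrial ribosomal proteins, 2 fell, Mrps24 and Mrpl4, and 1 rose, Mrpl52 (median -0.31). They shared with the subunits a WT change that was the lowest of the 3 genotypes, in 51 of 71 (71.8% against 39.4% of all probe sets tested). That share was 52.6% for the citric acid cycle, 52% for import and chaperones and 40% for assembly factors. It was 33.3% for mitochondrial carriers, 29.4% for regulators, 25% for electron entry and 25% for fatty acid oxidation. All lists used the same WT arrays. For the counts that fell or rose here and below, the shares over all probe sets tested were 6.01% lower and 5.03% higher. Mitochondrial carriers had 1 of 15 higher (median 0.01), the dicarboxylate carrier Slc25a10 at 1.20 (limma adjusted p = 0.027). Import and chaperones had 1 of 25 higher (median -0.09), Timm23 at 0.66 (limma adjusted p = 0.041). Among 17 probe sets of regulators of mitochondrial gene expression, 1 fell (median 0.04), Tfb2m, a factor for transcription of mitochondrial DNA, by 1.19 (limma adjusted p = 0.0452).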

How the data were processed

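Total RNA (Trizol) was turned into biotinylated cRNA for Affymetrix arrays, per the labels' protocols. The table the authors deposited gives linear signal intensity for 12488 probe sets in 6 samples. The submitters' processing notes name MAS5; for the version and scaling target, "not given in the sources used here" applies. Over the arrays, 2% trimmed means were 500.3 to 500.4. Signals were rescaled to the mean of these, floored at the 40th percentile and converted to log2; 66 control probe sets were left out, and the 9344 probe sets that exceeded the floor anywhere were tested. Low probe sets that pass through 1 state alone had to differ, and values at the floor understate changes.

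Gene symbols came from the platform annotation, and all 73 member gene identifiers were found with the same symbol in the RefSeq genes of GRCm38.p6. Fits used R 4.3.3 and limma 3.58.1, with genotype and state as additive terms, trended eBayes and Benjamini-Hochberg adjusted p-values over all probe sets tested; the code was tested on simulated data. The number of arrays limits the precision, and p-values measure only the spread between these samples. No 2 of the 6 arrays held identical values. Members and lists were chosen with earlier results of these data known. Signals of every array are given for called members, for members with the largest induction differences (4 each way for KO, 2 for KI, at least 1 on the log2 scale) and for named isoforms and complex II; other members whose signals are printed were chosen after their values were seen, by complex and role, and up to 4 called genes of each other list.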

Additional observations from a re-analysis of the deposited data

Results flagged for a closer look

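In 8 comparisons, on 7 of the probe sets tested, a member's signal moved in opposite directions with stimulation in 2 genotypes and the log2 changes were at least 1 apart. The difference was not tested in any of them, since each genotype has 1 array per state. Atp5k differed by 1.75 between KO and WT, Ndufa12 by 1.09 between KO and WT, a probe set of Atp5l by 1.44 between KI and WT and by 1.46 between KI and KO, Ndufa2 by 1.12 and Ndufaf4 by -1.31 between KI and WT. A probe set of Ndufa1 differed by 1.33 and Sdhaf1 by 1.19 between KI and KO. Ndufa2 and Sdhaf1 read above 400 on all 6 arrays, Ndufa1, Ndufa12 and Ndufaf4 each have at least 1 array under the floor in the compared genotypes, and the brighter probe set of Atp5l was lower after stimulation in all 3 genotypes.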

How the results depend on the processing

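Genotype as a block in the fit already pairs the untreated and the stimulated array of each genotype. No further pairing was possible because the labels number no replicates. The count of members that rose was 0 under all 19 alternatives run. The count that fell, 5, was 1 with arrays centred on the median, 3 with eBayes without the trend, and 0 with no filter on low values, without both arrays of WT, of KO or of KI, and without any single array (range 0 to 0). Among the 7 other alternatives it ran up to 7, with the pseudocount of 16. In the fits that left out arrays, nearly none of the 9344 probe sets tested passed, so their counts do not weigh the members. Leaving out 1 array of a genotype gave the same fitted stimulation changes as leaving out both. The median member change was -0.0236 with arrays centred on the median and otherwise moved by less than the residual spread; with single arrays left out it ran from -0.21 to -0.13. With single arrays left out, members called ran from 0 to 3 for KO against WT and from 0 to 4 for KI against WT, the highest without the stimulated WT array, and were 0 under every other alternative. The medians of induction differences stayed within that spread, from 0.22 to 0.31 for KO minus WT, from 0.19 to 0.31 for KI minus WT and from -0.07 to 0.00 for KI minus KO. With the floor at the 60th percentile the induction differences of Cox5a, Ndufa12, Atp5d and Ndufaf4 were 0, that of Atp5l was 0.24 and that of Atp5k between KO and WT 1.17. At the 20th percentile those of Cox5a, Atp5d, Ndufa12 and Ndufaf4 were 2.88, 2.83, 2.17 and -1.75, and those of Atp5k and Atp5l stayed at 1.75 and 1.44. The settings that kept only members with a mean signal of at least 500, 1 probe set per gene or no letter suffix were chosen after seeing the data. The number of arrays and signals near the floor limit these values.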
